A study of Mus musculus with 9 samples.

Results

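The comparison described here sets mouse monocyte-derived dendritic cells given R837 together with spermidine against unstimulated control cells, with 3 libraries in each group. These are 6 of the 9 mRNA-seq libraries of the series, and the remaining 3 came from cells given R837 alone. R837 (imiquimod) is a small synthetic agonist of Toll-like receptor 7, and spermidine is a natural polyamine. The mice were of the C57BL/6 strain. Bone marrow monocytes spent 7 days in culture with GM-CSF (100 ng/mL) plus IL-4 (50 ng/mL), per the labels' protocols, and the resulting cells were collected by flow sorting. The treated cells were primed for 24 h with interferon α and then held for 18 h with R837, with or without spermidine. Whether the unstimulated cells received the priming step is not given in the labels, so a difference from control may hold a part set by the priming as well as by R837 and by spermidine. No group received spermidine alone, so the contributions of the agents to a difference from control cannot be told apart. The labels also do not say whether replicates were separate cultures or animals, and the p-values then measure only the spread between these libraries. Genes were compared where they reached 1 FPKM (fragments scaled to transcript length and to the mapped fragments of the library) in at least 3 of the 6 libraries, which left 11448 of the 52476 gene symbols in the tables.

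Toll-like receptor 7 sits in endosomes and binds single-stranded RNA or small agonists such as R837. Through the adaptor MyD88 it releases NF-κB from its IκB inhibitors and activates interferon regulatory factors, and dendritic cells respond with cytokines, chemokines, co-stimulatory proteins and feedback inhibitors. A second defence programme rests on NRF2, a transcription factor that is freed from its repressor KEAP1 when cells meet electrophiles or oxidants and that drives genes of glutathione, thioredoxin and heme metabolism through antioxidant response elements. Polyamines are made from ornithine, and spermidine also serves as the substrate for hypusination, a modification of the translation factor eIF5A.

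FPKM totals were close between libraries, at 310220 to 326222. The files hold no counts. Steps among the low values fitted a depth of 10650000 to 14425000 units per library, but few values came out whole, so the depth is an estimate. All 37 mitochondrial genes had a listed value of 0 throughout, and a 0 here need not mean absence. Of 11 dendritic cell markers 8 passed the filter, with a summed level of 3523 to 3571 FPKM in the controls and 3407 to 3548 FPKM with R837 plus spermidine, while Cd209a was listed at 0 throughout and Flt3 and Dpp4 were below the filter. The macrophage markers summed to 820 to 833 FPKM in the controls and 1047 to 1058 FPKM with the combination, and Csf1r, the receptor for macrophage colony-stimulating factor, stood at 281 ± 4.18 and 270 ± 2.97 FPKM (SD, n = 3). Of 8 monocyte markers 3 passed the filter, Ly6c2, Plac8 and Chil3. The monocyte list summed to more than either, 5205 to 5970 FPKM in the controls and 5646 to 6541 FPKM with the combination. The sorted cells thus carried transcripts of the dendritic cell, macrophage and monocyte lists. The neutrophil markers summed to 72 to 81.6 FPKM in the controls and 59.1 to 62.6 FPKM with the combination, and the mast cell and basophil markers to 18.4 to 22.2 and 13.7 to 14.1 FPKM. In bulk RNA, fewer cells of a type and less RNA per cell cannot be told apart, and the part of these cells in the results below was not tested. Globin and other erythroid transcripts reached 1985 FPKM in 1 library of R837 alone but at most 11.3 FPKM in a control and 0.261 FPKM with the combination. The comparison of the combination with control does not use that library, but the values for R837 alone and the comparison of the treated groups do. With R837 alone the neutrophil list summed to 87.1 to 412 FPKM and the monocyte list to 1833 to 5052 FPKM.

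Of the tested genes 55.9% differed from control. An adjusted p (limma's moderated test on log2(FPKM + 1), two-sided, Benjamini-Hochberg over all 11448 genes) below 0.05 was reached by 1942 genes that were higher (17.0%) and 4462 that were lower (39.0%) with R837 plus spermidine. The rises were the larger changes. At least 2-fold higher on the log2(FPKM + 1) scale were 469 genes and at least 2-fold lower were 323, and at 4-fold the counts were 81 and 11. The median gene changed by -0.17. FPKM is scaled to the mapped fragments of each library, so a strong rise of abundant transcripts can lower the values of others. Whether it did so here was not tested. With median-of-ratios scaling, which moved the median by 0.17, the split was 2830 higher (24.7%) against 2602 lower (22.7%). List counts below are therefore given under both scalings wherever they differ, and are to be read beside these shares over all genes. Unless another unit is named, a change is on the log2(FPKM + 1) scale, which understates the change of low genes, and a level is the mean FPKM ± SD over 3 libraries.

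The largest rise was that of a chemokine. Cxcl1, a neutrophil-attracting chemokine, was at 1.26, 1.32 and 1.53 FPKM in the controls and at 116, 84.5 and 88.3 FPKM with R837 plus spermidine, a log2 change of 5.35 ± 0.13 (SE; adjusted p = 8.8e-07). Its relative Cxcl2 went from 17.4, 18.1 and 23.9 FPKM to 727, 448 and 531 FPKM (log2 change 4.76 ± 0.19, adjusted p = 5.2e-06). Cxcl3 went from 3.5, 3.38 and 4.35 FPKM to 154, 93.1 and 110 FPKM (log2 change 4.63 ± 0.18, adjusted p = 4.5e-06). The groups were far apart for all 3 genes, as they were without overlap for 63.5% of all tested genes, and the first combined library was the highest of its group each time. The 3 genes are close copies of one another on chromosome 5, so some reads may have been shared between them in counting. With R837 alone their means were 200, 860 and 146 FPKM.

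These 3 were also the genes among the 15 largest rises whose promoter window held a match to an NF-κB-type motif, spelled GGG, any 3 bases and TTCC and searched on both strands. The windows are RefSeq sequences (GRCm38.p6) that run from 250 bases before the transcription start to 50 after it, and they are printed 5′ to 3′ in the direction of the gene, with matches in capitals. Nfkbia, which encodes the NF-κB inhibitor IκBα, is shown beside them as a feedback gene with the same letters.
Cxcl1 (chr5:90890995-90891294, plus strand): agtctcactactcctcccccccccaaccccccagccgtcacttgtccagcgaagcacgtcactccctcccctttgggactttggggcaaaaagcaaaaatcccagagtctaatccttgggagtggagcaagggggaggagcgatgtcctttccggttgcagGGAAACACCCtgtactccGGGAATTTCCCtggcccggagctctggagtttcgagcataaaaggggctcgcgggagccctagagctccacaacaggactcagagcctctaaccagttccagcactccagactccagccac
Cxcl2 (chr5:90903649-90903948, plus strand): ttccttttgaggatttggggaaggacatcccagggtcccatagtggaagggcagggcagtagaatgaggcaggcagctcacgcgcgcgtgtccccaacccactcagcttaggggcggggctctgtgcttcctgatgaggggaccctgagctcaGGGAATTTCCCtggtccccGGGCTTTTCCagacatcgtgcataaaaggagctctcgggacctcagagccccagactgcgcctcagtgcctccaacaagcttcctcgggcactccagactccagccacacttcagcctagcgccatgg
Cxcl3 (chr5:90785851-90786150, plus strand): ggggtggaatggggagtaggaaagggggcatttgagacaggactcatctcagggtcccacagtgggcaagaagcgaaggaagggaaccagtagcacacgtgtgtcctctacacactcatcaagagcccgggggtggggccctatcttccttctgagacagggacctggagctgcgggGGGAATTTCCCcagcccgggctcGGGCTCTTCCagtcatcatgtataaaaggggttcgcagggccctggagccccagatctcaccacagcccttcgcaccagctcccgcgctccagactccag
Nfkbia (chr12:55492598-55492897, minus strand): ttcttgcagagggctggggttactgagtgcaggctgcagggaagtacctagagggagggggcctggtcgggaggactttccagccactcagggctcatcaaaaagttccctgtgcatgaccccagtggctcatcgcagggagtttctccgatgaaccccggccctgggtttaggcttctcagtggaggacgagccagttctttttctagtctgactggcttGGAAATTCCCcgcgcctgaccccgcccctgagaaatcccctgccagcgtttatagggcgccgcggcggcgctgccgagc
In the chemokine promoters the matches began 89 and 71 bases before the start in Cxcl1, 97 and 78 bases before it in Cxcl2, and 73 and 50 bases before it in Cxcl3. The longer capital run in each matched on both strands, with starts 1 base apart. Of the 15 largest rises 12 had a window, and 3 of these (25%) held the letters, against 594 of 8162 tested genes with a window (7.28%) and 0 of 14 among the 15 largest falls. The 3 are the close copies Cxcl1, Cxcl2 and Cxcl3, whose windows share the run GGGAATTTCCC, so they are not 3 independent cases. In the NF-κB list, which is partly made of genes known for such sites, 8 of 20 did (40%). A match is a description of the letters and does not show binding.

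**Figure D1:**
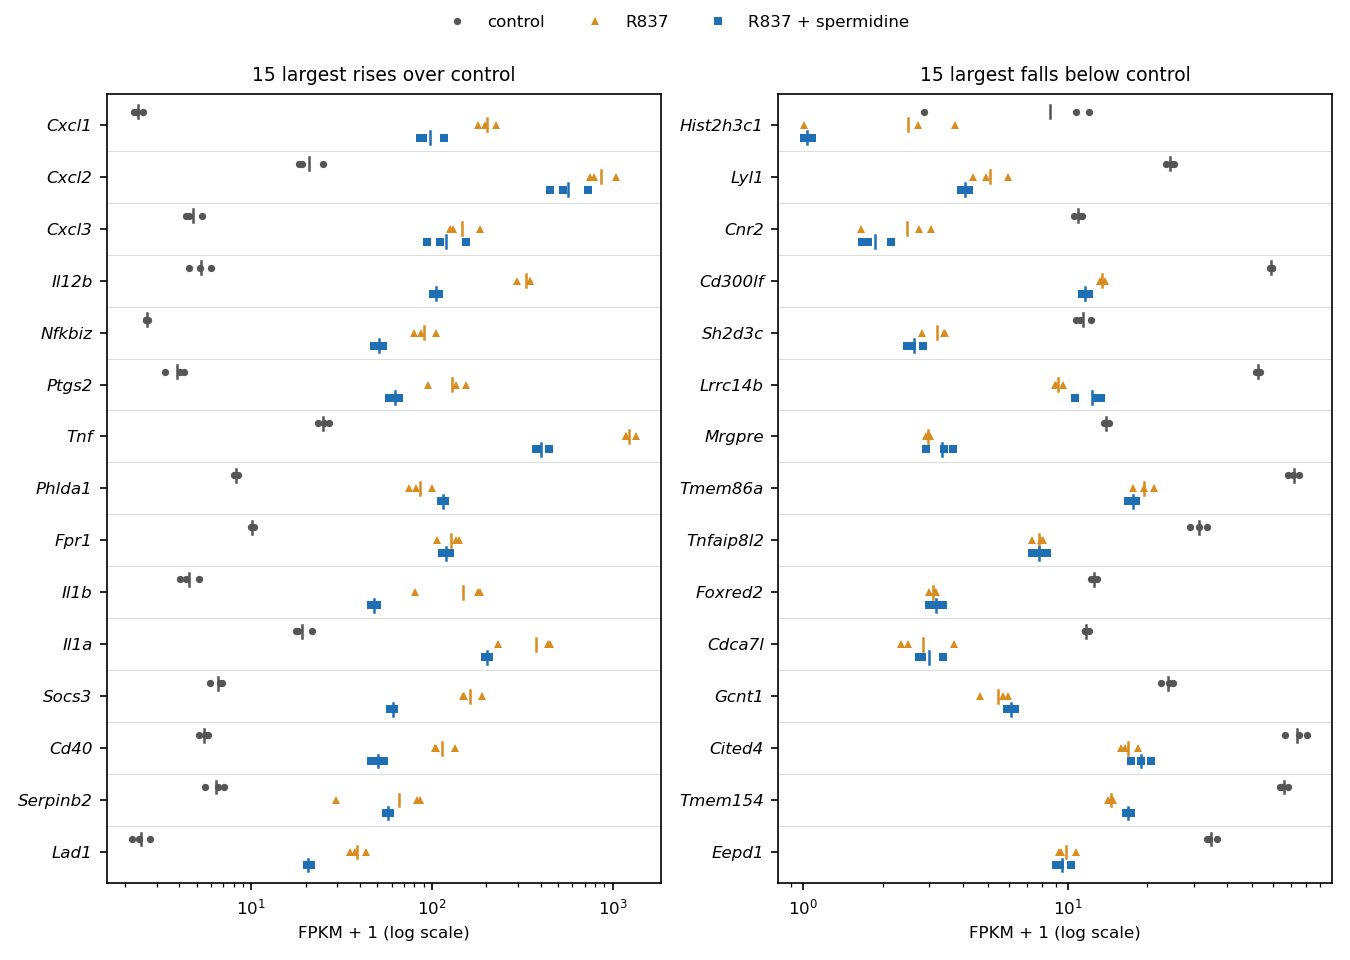
FPKM + 1 on a log scale in each of the 3 control, 3 R837 and 3 R837 plus spermidine libraries (points) with the group means (bars), for the 15 largest rises and 15 largest falls of R837 plus spermidine against control. The combined libraries lie apart from the controls for every gene shown, as the choice of genes required, and Cxcl1 has the largest change, 5.35.

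Cytokines and chemokines rose as a group: of 34 tested members 26 were higher and 4 lower (26 and 2 with median-of-ratios scaling), with a median change of 1.01 against -0.17 over all genes. Tnf, which encodes tumour necrosis factor, was at 24.2, 22.3 and 25.9 FPKM in the controls and 442, 377 and 387 FPKM with the combination (a log2 change with a 95% interval of 3.81 to 4.20, adjusted p = 8.4e-07). Il12b, the p40 chain shared by IL-12 and IL-23, was at 3.55, 5.02 and 4.23 FPKM against 105 ± 3.67 FPKM with the combination (log2 change 4.33 ± 0.10, adjusted p = 8.8e-07). Neither gene's groups overlapped, as the rule for the largest rises required. With R837 alone they stood higher still, at 1239 ± 88.8 FPKM for Tnf and 330 ± 30.6 FPKM for Il12b, and the fit of the 6 treated libraries, in which 7.15% of genes were called, 2.80% higher and 4.34% lower with the combination, gave changes of -1.62 (adjusted p = 0.00072) and -1.65 (adjusted p = 0.00063) for the combination against R837. Both differences lie on top of rises over control that remained 16.7-fold and 24.5-fold by the mean FPKM.

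Interleukin 1 genes rose too. Il1b went from 3.38, 3.06 and 4.16 FPKM to 47.7, 48.6 and 44.8 FPKM (log2 change 3.41 ± 0.10, adjusted p = 1.3e-06), and Il1a from 17.1, 16.7 and 20.7 FPKM to 205, 206 and 195 FPKM (log2 change 3.41 ± 0.08, adjusted p = 8.8e-07). The combined libraries agreed closely, whereas the second R837 library was low for both genes, at 79.4 FPKM for Il1b against 183 and 179 FPKM in the other R837 libraries. Among cytokines that were scarce in the controls, Il6 went from 0.0362, 0.113 and 0.424 FPKM to 9.58, 6.77 and 8.25 FPKM (log2 change 2.95 ± 0.16, adjusted p = 1.7e-05). Il10, an anti-inflammatory cytokine, went from 0.201, 0.331 and 0.133 FPKM to 5.49, 5.57 and 6.77 FPKM (log2 change 2.50 ± 0.11, adjusted p = 6.4e-06). Il27 reached 7.63 ± 1.09 FPKM from 0.597 ± 0.134 FPKM (log2 change 2.43 ± 0.11, adjusted p = 9.4e-06), and was at 34.2 ± 6.69 FPKM with R837 alone. These levels are low enough that their control values carry a large counting error.

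Some cytokines were too low to be tested. Il12a, the p35 chain that completes IL-12, did not pass the filter, and it was at 1.54, 0.788 and 0.683 FPKM with the combination and at most 0.0396 FPKM in a control, beside 9.38 ± 0.962 FPKM with R837 alone. Csf2, which encodes GM-CSF, was at 0.491 ± 0.263 FPKM with the combination, 0.145 ± 0.0629 FPKM in the controls and 5.59 ± 1.39 FPKM with R837 alone, and was likewise not tested against control. Il23a, the IL-23 p19 chain, stayed below the filter as well, at 0.393 ± 0.162 FPKM. The 4 members that fell were Csf1, Tgfb1, Vegfa and Ccl6. Vegfa, an angiogenic factor, went from 17.8 ± 0.543 to 7.39 ± 0.576 FPKM (log2 change -1.16 ± 0.07, adjusted p = 2.7e-05), and Tgfb1, a suppressive cytokine, from 60.4 ± 2.93 to 45.2 ± 3.61 FPKM (-0.41 ± 0.07, adjusted p = 0.0029). With median-of-ratios scaling neither Csf1 (adjusted p = 0.4) nor Ccl6 (adjusted p = 0.18) was called lower. Leaving out control library 3, or combined library 2 or 3, also ended the Ccl6 call (adjusted p of 0.052 to 0.059).

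The CC chemokines, which draw monocytes and T cells, spread over a wide range. Ccl3 was at 88.2 ± 10.6 FPKM in the controls, 305 ± 55.4 FPKM with the combination and 1020 ± 108 FPKM with R837 alone, a change from control of 1.77 ± 0.14 (adjusted p = 9.2e-05). Ccl4 was at 36.1 ± 0.641, 106 ± 7.23 and 270 ± 46.7 FPKM in the same order (1.52 ± 0.06, adjusted p = 5.2e-06). Ccl2 differed from control by 0.50 ± 0.09 (adjusted p = 0.0028), with 54.8 ± 2.2 FPKM in the controls, 78 ± 8.49 FPKM with the combination and 221 ± 3.72 FPKM with R837 alone. Ccl7, a monocyte attractant, was at the control level: 42.7, 43.7 and 58.9 FPKM in the controls, 48.7, 41.7 and 50 FPKM with the combination, and 222, 195 and 190 FPKM with R837 alone. Its control and combined libraries overlapped, and the 95% interval of the change ran from -0.36 to 0.28. Cxcl10, an interferon-induced T cell attractant, behaved otherwise and rose from 2.3 ± 0.169 to 21.6 ± 1.96 FPKM (2.77 ± 0.08, adjusted p = 1.9e-06).

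NF-κB genes and their feedback inhibitors were higher almost without exception, with 22 of 23 called higher, none lower and a median change of 1.38. The exception was Cyld, a deubiquitinase, at 1.85 ± 0.169 and 2.22 ± 0.417 FPKM (0.17 ± 0.11, adjusted p = 0.24). Nfkbiz, an atypical IκB protein that promotes transcription of secondary response genes, was at 1.63, 1.67 and 1.61 FPKM in the controls and 46.7, 52.8 and 51.2 FPKM with the combination (4.28 ± 0.07, adjusted p = 3.3e-07). Nfkbia, whose promoter is printed above, was at 53.8, 54 and 47.7 FPKM against 301, 268 and 292 FPKM (2.45 ± 0.07, adjusted p = 1.5e-06). Icam1, an adhesion molecule, rose from 27.9 ± 0.529 to 177 ± 3 FPKM (2.62 ± 0.05, adjusted p = 4.8e-07), and Tnfaip3, the A20 ubiquitin-editing enzyme, from 24.1 ± 1.23 to 79.1 ± 23.1 FPKM (1.64 ± 0.18, adjusted p = 0.00038). For Tnfaip3 the third combined library stood at 106 FPKM, above the 65.2 and 66.4 FPKM of the others.

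In the list of brakes on signalling 11 of 19 members were higher and 7 lower (11 and 5 with median-of-ratios scaling). Socs3, a brake on JAK-STAT signalling, went from 5.9, 5.74 and 4.93 FPKM to 60.6, 57.5 and 61 FPKM (3.22 ± 0.07, adjusted p = 8.4e-07). Dusp4, a phosphatase that acts on MAP kinases, was at 34.9 ± 0.184 FPKM against 93.6 ± 0.999 FPKM (1.40 ± 0.04, adjusted p = 2e-06). Socs1 rose from 9.42 ± 0.605 to 25.3 ± 1.96 FPKM (1.34 ± 0.08, adjusted p = 2.4e-05). Of the 27 genes of Toll-like receptor signalling 14 were higher and 3 lower (14 and 0 with median-of-ratios scaling). Tlr7 itself, the receptor of R837, was at 4.9, 5.07 and 5.57 FPKM in the controls and 4.44, 4.77 and 5.82 FPKM with the combination, and these overlapped (-0.05 ± 0.10, adjusted p = 0.72). Irak3, a negative regulator of this pathway, rose from 10.1 ± 0.763 to 34.4 ± 1.71 FPKM (1.68 ± 0.07, adjusted p = 6.5e-06), and Cd14, a co-receptor, from 155 ± 2.8 to 405 ± 7.21 FPKM (1.38 ± 0.05, adjusted p = 2.2e-06).

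Of 17 tested genes of dendritic cell maturation 14 were higher and none lower, with a median change of 1.18. Cd40, the receptor by which T cells license dendritic cells, was at 4.77, 4.53 and 4.14 FPKM in the controls and 53.3, 49.5 and 45.2 FPKM with the combination (3.20 ± 0.08, adjusted p = 8.8e-07). Tnfsf15, a TNF family ligand, rose from 1.24 ± 0.124 to 16.5 ± 0.817 FPKM (2.96 ± 0.08, adjusted p = 8.8e-07), and Icosl, the ligand of ICOS on T cells, from 2.02 ± 0.11 to 16.1 ± 1.35 FPKM (2.50 ± 0.08, adjusted p = 2e-06). The classical co-stimulators rose less or not at all. Cd80 and Cd83 changed by 0.88 ± 0.10 (adjusted p = 0.00052) and 0.92 ± 0.08 (adjusted p = 0.00011), while Cd86 was at 7.64 ± 0.28 and 6.86 ± 0.868 FPKM with overlapping libraries (-0.14 ± 0.09, adjusted p = 0.22), and was called lower without the third combined library (adjusted p = 0.044). Ccr7, the receptor that guides dendritic cells to lymph nodes, rose from 80.3 ± 2.75 to 123 ± 6.12 FPKM (0.61 ± 0.06, adjusted p = 0.0002).

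Antigen presentation genes moved little. In the MHC class II list 1 of 11 tested members was higher and 3 lower, and with median-of-ratios scaling 4 were higher and none lower, so no direction is given for it. Ciita, the master activator of class II transcription, rose from 5.54, 6.56 and 6 FPKM to 18.2, 18.7 and 17.6 FPKM (1.45 ± 0.07, adjusted p = 1.2e-05). Of the chains, H2-Aa and H2-Eb1 were called lower, H2-Aa at 523 ± 15.2 and 444 ± 13.3 FPKM (-0.24 ± 0.05, adjusted p = 0.0067), which median-of-ratios scaling ended (adjusted p = 0.59). Others were not called: Cd74, the invariant chain, which median-of-ratios scaling called higher (0.25, adjusted p = 0.0068), was at 2115 ± 28.7 and 2186 ± 62 FPKM (0.05 ± 0.05, adjusted p = 0.45), and H2-Ab1 at 511 ± 11.8 and 448 ± 37.1 FPKM (-0.19 ± 0.07, adjusted p = 0.051). In the class I list 9 of 19 were higher and 2 lower (11 and 0 with median-of-ratios scaling), and with 1 library left out 6 to 8 were higher and 1 to 3 lower. Nlrc5, the activator of class I transcription, rose from 8.56 ± 0.733 to 13.7 ± 0.159 FPKM (0.62 ± 0.07, adjusted p = 0.00049), and the largest change there was that of H2-Q7 (0.87 ± 0.06, adjusted p = 3.5e-05), one of a family of near-identical genes whose reads may have been split.

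Interferon-stimulated genes were higher for 28 of 40 members and lower for 4 (30 and 1 with median-of-ratios scaling), with a median change of 0.60 beside 0.48 for R837 alone against the same controls. Ifi205, a DNA-sensing family member, was at 3.91, 3.79 and 4.24 FPKM in the controls and 40, 40.2 and 42.3 FPKM with the combination (3.07 ± 0.06, adjusted p = 8.4e-07). Gbp5, a guanylate-binding protein, rose from 1.34 ± 0.0753 to 17.3 ± 0.666 FPKM (2.96 ± 0.07, adjusted p = 8.4e-07). The antiviral genes Ifit1 and Rsad2 went from 7.71 ± 0.348 to 26.6 ± 2.86 FPKM and from 40.5 ± 1.89 to 113 ± 0.665 FPKM (1.66 ± 0.09, adjusted p = 1.4e-05, and 1.46 ± 0.05, adjusted p = 3.2e-06). Isg15, a ubiquitin-like modifier, rose from 89.1 ± 1.87 to 197 ± 22.4 FPKM (1.13 ± 0.09, adjusted p = 7.8e-05). Irf8, a lineage factor of dendritic cells that the list also holds, fell from 19.6 ± 1.41 to 11.9 ± 1.19 FPKM (-0.67 ± 0.09, adjusted p = 0.00085). Irf7 was lower by 0.26 (adjusted p = 0.0067), a call that median-of-ratios scaling ended (adjusted p = 0.39). Since interferon α priming is stated for treated cells alone, its part in these values cannot be told apart from that of R837.

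**Figure D2:**
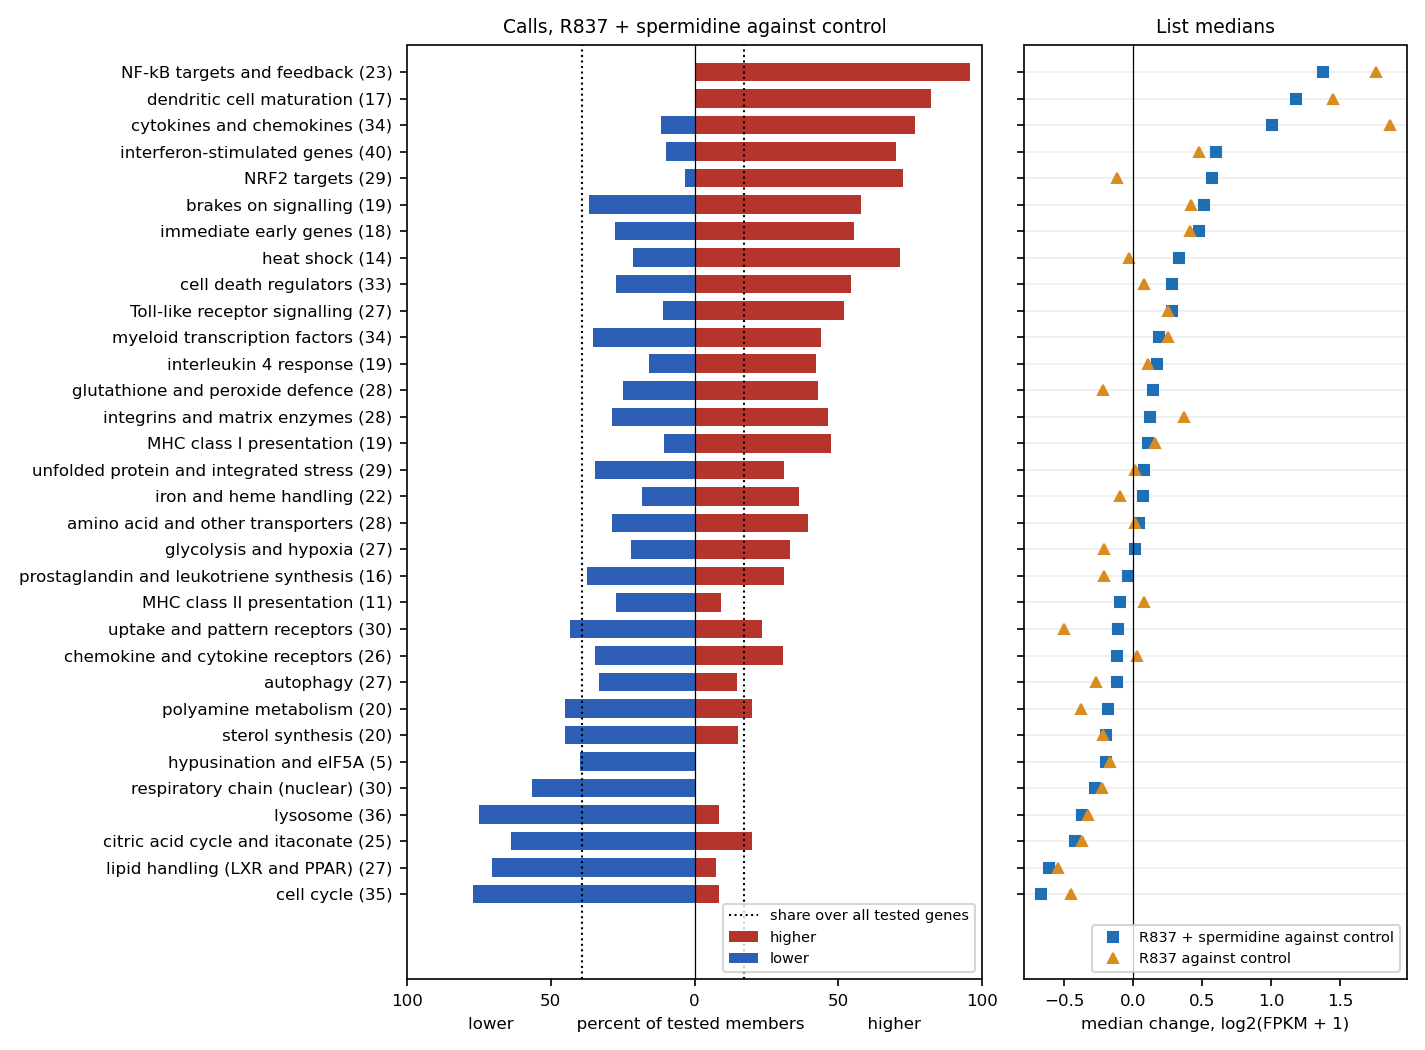
Left, the percent of tested members of each of 32 gene lists called higher (red, to the right) or lower (blue, to the left) with R837 plus spermidine against control, with the number tested in parentheses and the shares over all tested genes (17.0% and 39.0%) dotted. Right, the median log2 change of the same lists for the combination (squares) and for R837 alone (triangles), which share the 3 control libraries. NRF2 targets have a median of 0.57 with the combination and -0.12 with R837 alone.

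NRF2 targets formed the other large group of rises. Of 29 tested members 21 were higher and 1 lower with the combination (25 and 0 with median-of-ratios scaling), with a median change of 0.57. With R837 alone, measured against the same control libraries, 7 of 28 were higher and 7 lower, with a median of -0.12, where 38.9% of all genes were called, 12.6% higher and 26.3% lower. Hmox1, heme oxygenase 1, which opens the heme ring and frees its iron, was at 1093, 1117 and 1200 FPKM in the controls, 1259, 1320 and 1124 FPKM with R837, and 5899, 4768 and 5110 FPKM with R837 plus spermidine. It was 4.63-fold above control by the means (log2 change 2.20 ± 0.09, adjusted p = 5.2e-06), and the R837 and control libraries overlapped. Against R837 the change was 2.09 (adjusted p = 0.00063).

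Glutathione and thioredoxin genes followed, and in the separate list of glutathione and peroxide defence 12 of 28 were higher and 7 lower (16 and 2 with median-of-ratios scaling). Gclm, the modifier subunit of the enzyme that starts glutathione synthesis, was at 6.57, 6.45 and 9.54 FPKM in the controls and 17.6, 21.9 and 30.7 FPKM with the combination (a log2 change with a 95% interval of 0.99 to 2.02, adjusted p = 0.0012), with 5.45 ± 0.512 FPKM for R837 alone. Gss, glutathione synthetase, a member of that separate list, was at 3.7, 3.41 and 3.41 FPKM against 10.5, 9.41 and 11.4 FPKM (1.34 ± 0.08, adjusted p = 3.1e-05), with 3.34 ± 0.444 FPKM for R837. Prdx1, a peroxidase that spends thioredoxin, was at 499, 409 and 427 FPKM against 842, 1029 and 965 FPKM (1.09 ± 0.10, adjusted p = 0.0002). The groups did not overlap for any of these genes, and Gclm varied the most among the combined libraries. With all 9 libraries in one fit Prdx1 was not called (adjusted p = 0.077). The promoter windows of Gclm and Prdx1 each held TGACNNNGC, the core of the antioxidant response element, at 134 and 133 bases before the start on the opposite strand, in capitals here.
Gclm (chr3:122245307-122245606, plus strand): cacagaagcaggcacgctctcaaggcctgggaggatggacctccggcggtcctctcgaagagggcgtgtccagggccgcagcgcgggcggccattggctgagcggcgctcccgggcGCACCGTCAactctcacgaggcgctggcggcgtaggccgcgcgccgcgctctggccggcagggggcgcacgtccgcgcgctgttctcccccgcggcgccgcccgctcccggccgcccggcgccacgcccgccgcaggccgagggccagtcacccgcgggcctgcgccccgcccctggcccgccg
Prdx1 (chr4:116685349-116685648, plus strand): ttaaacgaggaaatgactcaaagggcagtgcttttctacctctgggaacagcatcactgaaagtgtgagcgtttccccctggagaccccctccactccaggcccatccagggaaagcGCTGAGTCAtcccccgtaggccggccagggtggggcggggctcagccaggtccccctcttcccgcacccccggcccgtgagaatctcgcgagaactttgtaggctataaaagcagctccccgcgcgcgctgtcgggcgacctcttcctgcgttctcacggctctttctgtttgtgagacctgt
The same letters were present in 10 of 25 NRF2 list members with a window (40%) and in 1418 of 8162 tested genes with one (17.4%). This list too is partly made of genes known for such sites, so its share is no independent test. None of the 12 windows among the 15 largest rises held the letters, while the Nfkbia window printed above did. In Prdx1 the match overlaps a TGANTCA motif of AP-1 proteins, so these letters do not separate the factors.

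Other NRF2 list members filled in the picture. Txnrd1, thioredoxin reductase, rose from 61.1 ± 0.848 to 195 ± 14.4 FPKM (1.66 ± 0.06, adjusted p = 4.4e-06), and Abcc1, an exporter of glutathione conjugates, from 9.07 ± 0.626 to 29.3 ± 1.7 FPKM (1.59 ± 0.07, adjusted p = 7.8e-06). Both were also higher than control with R837 alone, at 127 ± 7.12 and 21.3 ± 2.3 FPKM. Nqo1, a quinone reductase, was at 10 ± 0.753, 11.3 ± 2.1 and 24 ± 0.812 FPKM in control, R837 and combination (1.18 ± 0.07 against control, adjusted p = 2.4e-05). Srxn1, sulfiredoxin, was at 169 ± 3.73, 174 ± 24.1 and 386 ± 13.9 FPKM (1.18 ± 0.05, adjusted p = 6.1e-06), and Me1, the NADPH-forming malic enzyme, at 1.2 ± 0.277, 1.06 ± 0.0573 and 5.01 ± 0.111 FPKM (1.46 ± 0.10, adjusted p = 5.3e-05). Catalase, from Cat, was at 92.2 ± 5.14, 63.3 ± 3.56 and 117 ± 2.08 FPKM, below control with R837 (-0.53, adjusted p = 0.0023) and above it with the combination (0.34 ± 0.06, adjusted p = 0.0022). Slc7a11, the cystine importer, rose to 80.3 ± 1.77 from 35 ± 3.12 FPKM (1.18 ± 0.07, adjusted p = 2.9e-05). Gpx4, which reduces lipid peroxides and is no NRF2 list member, was lower, at 90.8 ± 2.5 against 113 ± 4.57 FPKM (-0.31 ± 0.05, adjusted p = 0.0025), and median-of-ratios scaling ended that call (adjusted p = 0.12).

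Around heme and iron, 8 of 22 tested genes were higher and 4 lower (10 and 2 with median-of-ratios scaling). Slc48a1, a transporter that brings heme out of endolysosomes, was at 69.7, 66.7 and 71.6 FPKM in the controls and 166, 150 and 156 FPKM with the combination (1.17 ± 0.06, adjusted p = 1.2e-05), with 69.2 ± 3.9 FPKM for R837 alone. Blvrb, a biliverdin reductase, rose from 37.2 ± 3.02 to 54.4 ± 0.69 FPKM (0.54 ± 0.07, adjusted p = 0.0007). Spic, a transcription factor known from iron-recycling macrophages, rose from 3.83 ± 0.402 to 15.3 ± 0.705 FPKM (1.75 ± 0.08, adjusted p = 9.2e-06). Slc40a1, ferroportin, the cellular iron exporter, was at 19.2, 18.5 and 16.4 FPKM in the controls, 15.7, 22.2 and 22 FPKM with the combination and 4.45 ± 0.494 FPKM with R837 alone. Its control and combined libraries overlapped (0.12 ± 0.14, adjusted p = 0.48; 0.28 and 0.031 without the first combined library), and the combination differed from R837 by 1.93 (adjusted p = 0.0015). Hamp, hepcidin, the hormone that degrades ferroportin, was at 0.627 ± 0.316, 6.58 ± 1.07 and 19.6 ± 3.99 FPKM in control, combination and R837 (2.23 ± 0.16 against control, adjusted p = 6.7e-05). The ferritin chains Fth1 and Ftl1, which store iron, were at 18556 ± 796 and 8912 ± 1034 FPKM with the combination, and neither was called (adjusted p = 0.24 and 0.98).

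**Figure D3:**
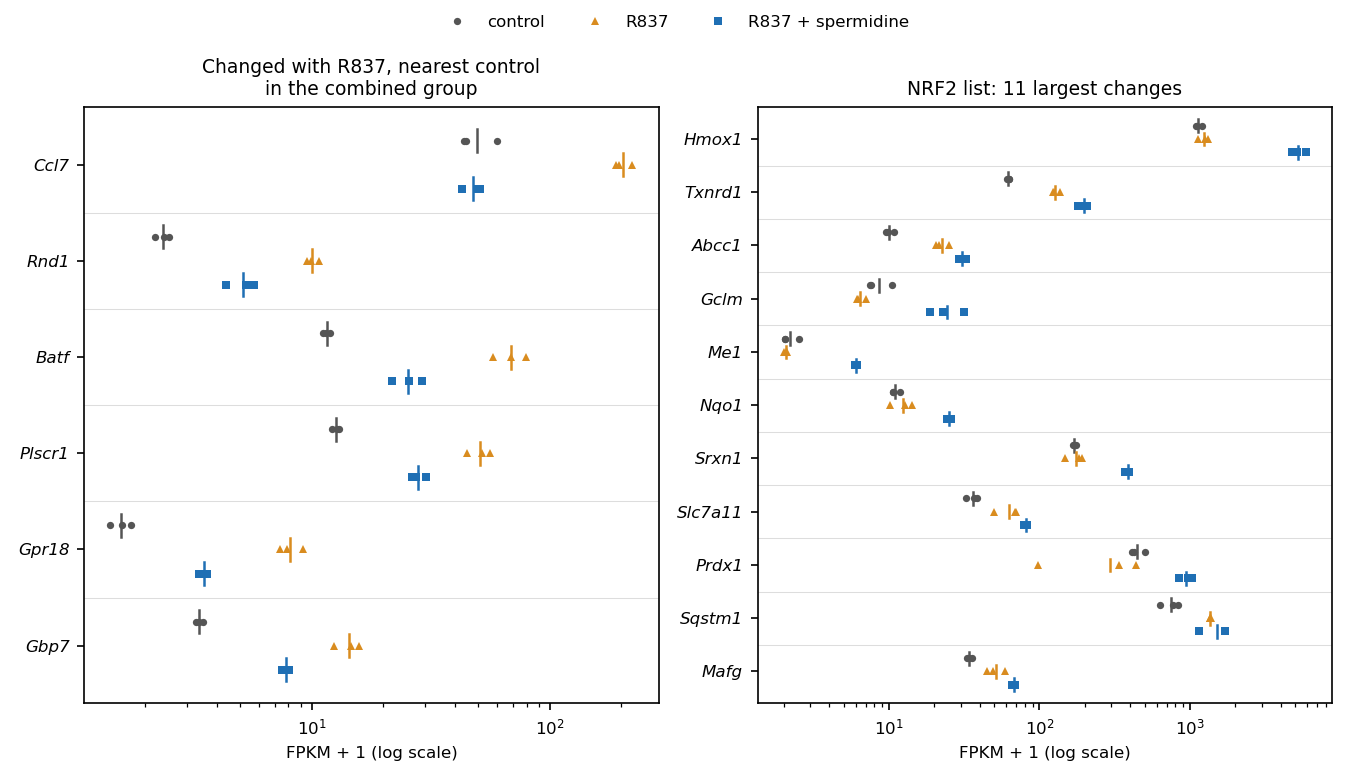
FPKM + 1 on a log scale in each library (points) with group means (bars). Left, 6 of the genes nearest the control level among those changed at least 4-fold by R837 and different between both treated groups, of which Ccl7 overlaps control and the others do not. Right, the 11 members of the NRF2 list with the largest changes against control, led by Hmox1 at 5259 FPKM with R837 plus spermidine.

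Several genes stood above both other groups. By a rule that took called rises against control and against R837, the 8 largest were Il1f9, Procr, Ednrb, Hmox1, Eid3, Treml4, Fosl1 and Nampt. Procr, the endothelial protein C receptor, was at 47, 48.2 and 45.7 FPKM in the controls, 122, 133 and 126 FPKM with R837 and 301, 274 and 299 FPKM with R837 plus spermidine (2.61 ± 0.06 against control, adjusted p = 8.4e-07). Fosl1, the AP-1 subunit FRA-1, was at 1.73, 1.52 and 0.871 FPKM, then 2.97, 2.24 and 2.31 FPKM, then 9.54, 7.31 and 8.72 FPKM (2.02 ± 0.16, adjusted p = 9.3e-05). Il1f9, interleukin 36γ, was at 5.52, 5.53 and 6.2 FPKM, then 22.8, 10.1 and 23.5 FPKM, then 43, 53.7 and 45.7 FPKM (2.84 ± 0.09, adjusted p = 2.3e-06). The 3 groups did not overlap for these genes, with the combination highest. For the combination against control the rule required this. Nampt, which makes NAD from nicotinamide, reached 130 ± 8.61 FPKM from 32.7 ± 1.81 FPKM (1.96 ± 0.07, adjusted p = 3.1e-06), and Ednrb, an endothelin receptor, 7.28 ± 0.622 from 0.621 ± 0.07 FPKM (2.35 ± 0.09, adjusted p = 3.5e-06). Leaving out 1 treated library ended the call against R837 for 4 of the 8 in at least one case: Il1f9 reached an adjusted p of up to 0.14, Ednrb 0.1, Nampt 0.13 and Treml4 0.054.

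The matching 8 genes below both other groups were Hist1h1c, H1f0, Hebp1, Rrm2, Ccn3, Ccna2, Hist3h2a and Vars. H1f0, a linker histone of resting and differentiated cells, was at 13.3, 13.8 and 16.6 FPKM in the controls, 13.2, 12.6 and 10.4 FPKM with R837 and 4.83, 2.83 and 3.36 FPKM with the combination (-1.75 ± 0.16 against control, adjusted p = 0.00019). Its combined libraries lay far below all others, while the highest R837 library lay just under the lowest control. Rrm2, a subunit of ribonucleotide reductase, went from 15.1 ± 0.922 to 5.47 ± 0.919 FPKM (-1.32 ± 0.11, adjusted p = 0.00011) and Ccna2, cyclin A2, from 5.49 ± 0.385 to 1.65 ± 0.159 FPKM (-1.29 ± 0.08, adjusted p = 3.8e-05). Hebp1, a heme-binding protein, fell from 25 ± 1.77 to 9.15 ± 0.709 FPKM (-1.35 ± 0.08, adjusted p = 2.4e-05). Against R837, 7 of the 8 missed the threshold when 1 library was left out, with adjusted p up to 0.16 for Ccna2, and H1f0 did not (at most 0.038). Histone messages without a poly(A) tail are caught unevenly by mRNA-seq, which bears on the histone names here.

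**Figure D4:**
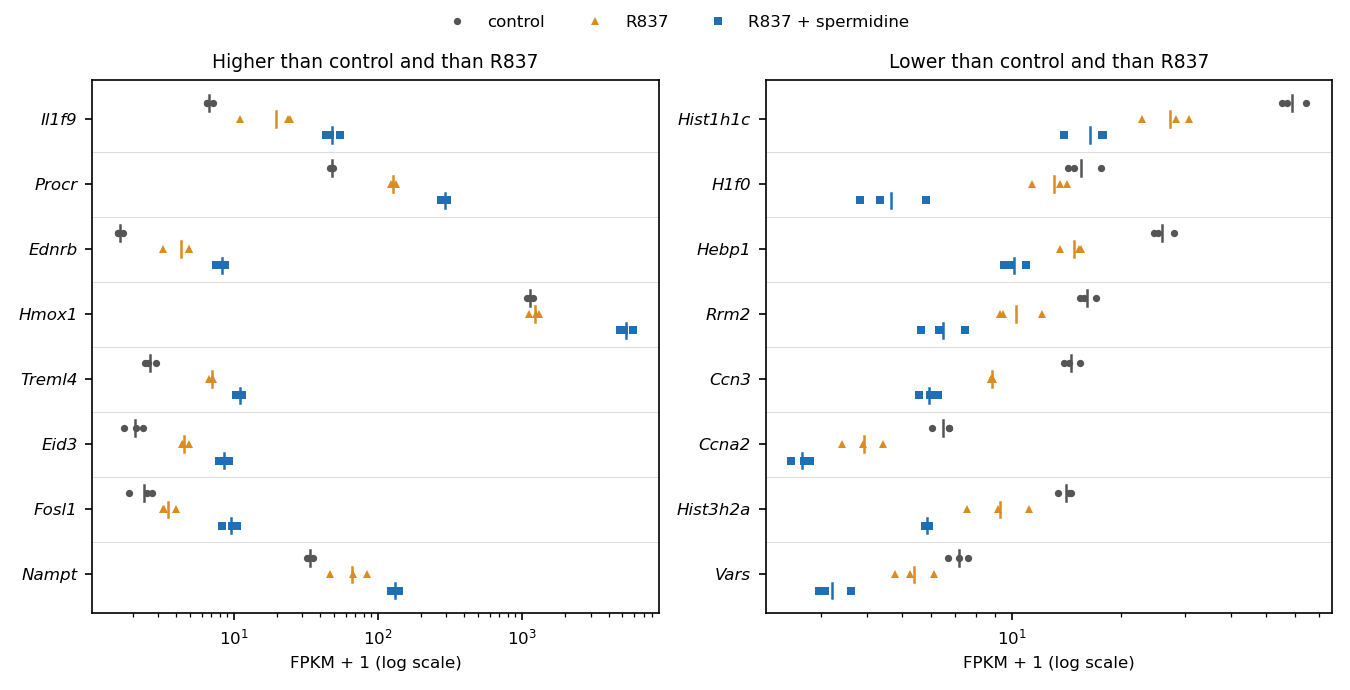
FPKM + 1 on a log scale in each library (points) with group means (bars) for the 8 largest rises and 8 largest falls of the combination that were called against control and against R837. The combined libraries lie apart from both other groups for every gene shown, which the choice of genes required against control. Hmox1 is the gene whose R837 libraries overlap the controls.

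A further 82 genes were changed at least 4-fold by R837 against control and differed between both treated groups. Among those nearest to control with the combination, 6 are described here: Ccl7, Rnd1, Batf, Plscr1, Gpr18 and Gbp7. Of these, Ccl7 was the one not called against control. Batf, an AP-1 family factor of dendritic and T cells, was at 10.5, 10.2 and 11 FPKM in the controls, 68, 78.6 and 56.8 FPKM with R837 and 28, 20.7 and 24.6 FPKM with the combination (1.13 ± 0.11 against control, adjusted p = 0.00021). Gpr18, a G protein-coupled receptor of immune cells, was at 0.738, 0.604 and 0.429 FPKM, then 6.85, 8.21 and 6.4 FPKM, then 2.65, 2.62 and 2.35 FPKM (1.16 ± 0.10, adjusted p = 0.00014). In both genes the combined libraries lay between the other groups with no overlap. Without the third combined library, the difference from R837 missed the threshold for Plscr1 and Gbp7 (adjusted p of 0.051 and 0.053).

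The largest falls were in genes of varied function. Lyl1, a basic helix-loop-helix transcription factor of blood cells, was at 24.2, 22.6 and 23.6 FPKM in the controls and 2.96, 3.07 and 3.25 FPKM with the combination (-2.58 ± 0.06, adjusted p = 8.8e-07). Cnr2, cannabinoid receptor 2, was at 10.3, 10 and 9.55 FPKM against 1.15, 0.756 and 0.67 FPKM (-2.57 ± 0.11, adjusted p = 6.1e-06). Cd300lf, an inhibitory receptor of myeloid cells, was at 58.3, 57.2 and 58.2 FPKM against 10.3, 10.6 and 11 FPKM (-2.34 ± 0.05, adjusted p = 8.4e-07). The groups did not overlap in any of the 3, as the rule for the largest falls required. The combined libraries of Cnr2 spread the most for their level. With R837 alone the means were 4.09, 1.47 and 12.5 FPKM, with no call between the treated groups (adjusted p = 0.19, 0.37 and 0.16), although Cnr2 came to -0.64 (adjusted p = 0.05) without the second R837 library. Tnfaip8l2, or TIPE2, which restrains Toll-like and T cell receptor signalling, fell from 30.4 ± 2.3 to 6.81 ± 0.509 FPKM (-2.01 ± 0.08, adjusted p = 5e-06). Hist2h3c1 had the largest fall (-2.81 ± 0.51, adjusted p = 0.0034), but its controls spread from 1.86 to 11 FPKM.

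Cell cycle genes fell: 27 of 35 tested members were lower and 3 higher (26 and 4 with median-of-ratios scaling), with a median change of -0.67. Mcm6, a helicase subunit needed for DNA replication, was at 10.6, 9.41 and 10.6 FPKM against 4.41, 4.32 and 4.15 FPKM (-1.08 ± 0.07, adjusted p = 4e-05), and Ccnd1, cyclin D1, went from 4.43 ± 0.258 to 1.55 ± 0.226 FPKM (-1.09 ± 0.09, adjusted p = 0.00012). The members that rose were Mki67, Ccnd2 and Cdkn1a. Mki67, the usual proliferation marker, was at 10, 10.4 and 11 FPKM in the controls and 20, 22.4 and 20.1 FPKM with the combination (0.92 ± 0.07, adjusted p = 7.2e-05), against the direction of Ccna2 and Mcm6. Cdkn1a, the cell cycle inhibitor p21, rose from 104 ± 3.34 to 186 ± 12.9 FPKM (0.83 ± 0.06, adjusted p = 8.5e-05).

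Lipid and lysosome genes were lower as well. In the list of lipid handling genes under LXR and PPAR 19 of 27 were lower and 2 higher, with a median of -0.61 (14 lower and 4 higher with median-of-ratios scaling). Abcg1, which exports cholesterol to lipoproteins, was at 140, 145 and 141 FPKM against 50.1, 45.6 and 45.6 FPKM (-1.57 ± 0.06, adjusted p = 3.1e-06). Pparg, a lipid-sensing nuclear receptor, fell from 22.5 ± 1.02 to 8.94 ± 0.779 FPKM (-1.24 ± 0.08, adjusted p = 2.9e-05) and Plin2, a lipid droplet coat protein, from 496 ± 23.1 to 265 ± 19.4 FPKM (-0.91 ± 0.07, adjusted p = 8e-05). Abca1, another cholesterol exporter, was at 24.9 ± 2.79 and 27.8 ± 2.06 FPKM (0.15 ± 0.09, adjusted p = 0.21), and was called higher with median-of-ratios scaling (0.35, adjusted p = 0.022). Of 36 lysosomal genes 27 were lower and 3 higher, with a median of -0.37 and 21 lower under the other scaling. Gusb, β-glucuronidase, fell from 111 ± 2.65 to 67.5 ± 1.62 FPKM (-0.71 ± 0.05, adjusted p = 4.5e-05), and Ctsd, the protease cathepsin D, from 4877 ± 82.4 to 3315 ± 170 FPKM (-0.56 ± 0.06, adjusted p = 0.00032). Acp5, an acid phosphatase, was an exception that rose (1.19 ± 0.10, adjusted p = 0.00011).

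Mitochondrial energy genes encoded in the nucleus were mostly lower or uncalled. Over all tested genes 39.0% were lower, and 22.7% with median-of-ratios scaling. Among 25 genes of the citric acid cycle and itaconate synthesis 16 were lower and 5 higher (12 and 7 with median-of-ratios scaling). Sdha, a subunit of succinate dehydrogenase, was at 69.9, 68.4 and 71.1 FPKM against 43.5, 45.8 and 46.8 FPKM (-0.61 ± 0.05, adjusted p = 0.00012). Acod1, which makes the immunomodulatory metabolite itaconate, went the other way, from 241, 242 and 255 FPKM to 1258, 1293 and 1195 FPKM (2.34 ± 0.05, adjusted p = 8.4e-07). In the respiratory chain list 17 of 30 were lower and none higher, with a median of -0.28. With median-of-ratios scaling only 5 were lower, no larger a share than over all genes, so no direction is given for it. Glycolysis and hypoxia genes had 9 of 27 higher and 6 lower (14 and 2 with median-of-ratios scaling), among them Hif1a, the hypoxia-inducible factor subunit (0.73 ± 0.11, adjusted p = 0.0015), and the prolyl hydroxylase gene Egln3 (1.48 ± 0.10, adjusted p = 5.4e-05) on the higher side.

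Polyamine genes are of interest because spermidine was added to the cells. Of 20 tested members 4 were higher and 9 lower (6 and 7 with median-of-ratios scaling). These counts are near the shares over all tested genes, 17.0% higher and 39.0% lower (24.7% and 22.7% with that scaling). No direction is therefore given for the list. Odc1, ornithine decarboxylase, the entry enzyme of polyamine synthesis, rose from 41.9, 41 and 36.8 FPKM to 56.3, 75.9 and 62.7 FPKM (0.68 ± 0.11, adjusted p = 0.0023), and stood at 58.7 ± 6.19 FPKM with R837 alone. Arg2, an arginase that supplies ornithine, rose from 13.8 ± 1.67 to 44.8 ± 2.99 FPKM (1.64 ± 0.09, adjusted p = 2.2e-05) and was at 46 ± 9.35 FPKM with R837 alone. Srm, spermidine synthase, fell from 10.9 ± 0.502 to 7.33 ± 0.201 FPKM (-0.51 ± 0.06, adjusted p = 0.00059), Adi1, of methionine salvage, from 30.7 ± 2.65 to 11.4 ± 0.532 FPKM (-1.36 ± 0.08, adjusted p = 2.1e-05), and Atp13a2, a lysosomal polyamine exporter, from 28 ± 1.35 to 12.9 ± 1.13 FPKM (-1.06 ± 0.08, adjusted p = 6.1e-05). The catabolic enzymes showed no call in this scaling, though both were called higher with median-of-ratios scaling (adjusted p = 0.0022 for Sat1 and 0.043 for Smox). Sat1 was at 57.1 ± 2.13 and 64.2 ± 3.46 FPKM (0.16 ± 0.06, adjusted p = 0.051), beside 38 ± 5.36 FPKM with R837 alone, and Smox at 17.2 ± 1.24 and 17.4 ± 0.786 FPKM (0.02 ± 0.07, adjusted p = 0.82). In the hypusination list none of 5 members was higher and 2 were lower, Dohh and Tfeb. With median-of-ratios scaling neither was called (adjusted p = 0.97 and 0.095), and 1 member was higher, a count that TPM, quantile normalization and a mean of at least 5 FPKM also gave. Dohh, deoxyhypusine hydroxylase, was at 15.1 ± 0.548 and 13.1 ± 0.788 FPKM (-0.18 ± 0.07, adjusted p = 0.048), and the change was 0.00 under median-of-ratios scaling. Leaving out any one library other than the first combined one also ended the Dohh call (adjusted p up to 0.13). Eif5a was at 85.8 ± 8.91 and 74.4 ± 7.44 FPKM with overlapping libraries (-0.20 ± 0.10, adjusted p = 0.13), and was called lower without the third control (adjusted p = 0.04).

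Of 14 heat shock genes 10 were higher and 3 lower (11 and 1 with median-of-ratios scaling), among them Hsp90aa1, from 75.6 ± 1.64 to 156 ± 14.3 FPKM (1.03 ± 0.07, adjusted p = 5e-05), and the near-identical Hspa1a and Hspa1b, whose reads may be shared (1.48 ± 0.06, adjusted p = 5.2e-06, and 1.60 ± 0.06, adjusted p = 3.6e-06). With 1 library left out 6 to 8 heat shock genes were higher. Hspa5, the main chaperone of the endoplasmic reticulum, rose from 53.3 ± 3.34 to 143 ± 26 FPKM (1.39 ± 0.13, adjusted p = 0.00017), although the wider list of unfolded protein and integrated stress genes split into 9 higher and 10 lower (16 and 5 with median-of-ratios scaling). Of 33 cell death regulators 18 were higher and 9 lower (18 and 7 with median-of-ratios scaling), and 14 to 18 were higher with 1 library left out. Nlrp3, the sensor of an inflammasome, went from 11.8, 15.8 and 11.8 FPKM to 64.8, 91.5 and 67 FPKM (2.41 ± 0.16, adjusted p = 4.4e-05), and Casp1, the caspase it activates, from 18.4, 12.6 and 11.3 FPKM to 34.6, 54 and 72.7 FPKM (1.83 ± 0.28, adjusted p = 0.0016). Their groups did not overlap, and Casp1 varied widely within the combined group. Bbc3, the pro-apoptotic protein PUMA, fell from 32.5 ± 1.72 to 9.79 ± 1.59 FPKM (-1.64 ± 0.11, adjusted p = 4.7e-05).

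Surface receptors for uptake and danger signals changed in both directions, with 7 of 30 higher and 13 lower (11 and 8 with median-of-ratios scaling). Over all tested genes 17.0% were higher and 39.0% lower (24.7% and 22.7% with that scaling), so no direction is given for this list. Clec4e, or Mincle, a receptor for mycobacterial glycolipids and dead cells, was at 27.5, 25.3 and 28 FPKM in the controls and 121, 116 and 121 FPKM with the combination (2.10 ± 0.06, adjusted p = 1.1e-06). Olr1, a scavenger receptor for oxidised lipoprotein, rose from 26.6 ± 1.97 to 86.8 ± 4.5 FPKM (1.67 ± 0.07, adjusted p = 6.4e-06). Mertk, a receptor that takes up apoptotic cells, fell from 18.2, 20.5 and 21.8 FPKM to 8.26, 7.32 and 7.6 FPKM (-1.28 ± 0.08, adjusted p = 3.7e-05), and its ligand Gas6 from 19.8 ± 1.19 to 13.1 ± 1.58 FPKM (-0.57 ± 0.09, adjusted p = 0.0022). Fpr1, a receptor for formylated bacterial peptides and one of the 15 largest rises though not a member of that list, went from 9.39, 9.05 and 8.96 FPKM to 119, 125 and 113 FPKM (3.57 ± 0.06, adjusted p = 3.3e-07). Ptgs2, cyclooxygenase 2, which starts prostaglandin synthesis, went from 2.32, 3.06 and 3.25 FPKM to 62.3, 65.1 and 56.6 FPKM (4.01 ± 0.11, adjusted p = 1e-06). Adam17, the protease that sheds TNF from the cell surface, rose from 24.6 ± 1.16 to 68.8 ± 4.81 FPKM (1.45 ± 0.07, adjusted p = 1e-05), beside 35.2 ± 2.39 FPKM with R837 alone.

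Receptors for cytokines and growth factors split into 8 higher and 9 lower of 26 tested (12 and 6 with median-of-ratios scaling). Over all tested genes 17.0% were higher and 39.0% lower (24.7% and 22.7% with that scaling), so no direction is given for this list. Tnfrsf1b, the second TNF receptor, was at 297, 311 and 293 FPKM in the controls and 565, 598 and 555 FPKM with the combination (0.93 ± 0.05, adjusted p = 2.1e-05). Cxcr4, the receptor that holds cells in the marrow, fell from 106, 110 and 108 FPKM to 50.2, 52 and 46.5 FPKM (-1.11 ± 0.06, adjusted p = 1.4e-05). The groups were apart in both genes. Csf3r, the G-CSF receptor and a neutrophil marker in the lists used here, was at 9.95 ± 0.479, 5.65 ± 0.324 and 11.9 ± 0.752 FPKM in control, combination and R837 (-0.72 ± 0.07 against control, adjusted p = 0.00022). Among 34 myeloid transcription factors 15 were higher and 12 lower (20 and 10 with median-of-ratios scaling), and no direction is given for them either. Irf4, a factor of dendritic cells that prime T cells, was at 15.2, 15.1 and 15.2 FPKM against 33.9, 33.7 and 32.1 FPKM (1.08 ± 0.05, adjusted p = 9.6e-06), and Mitf, a relative of the lysosomal regulator TFEB, rose from 8.96 ± 0.377 to 24 ± 1.72 FPKM (1.33 ± 0.07, adjusted p = 1.7e-05). Cebpa, a factor of myeloid progenitors, was at 50.7 ± 2.56, 36.6 ± 1.38 and 18.8 ± 4.23 FPKM in control, combination and R837 (-0.46 ± 0.06 against control, adjusted p = 0.00076).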

How the data were processed

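Gene expression was measured by mRNA-seq in 9 libraries, 3 per group, and grouped by the labels. The deposited values are FPKM per gene, computed by the authors, and the submitters' processing notes name HISAT2, StringTie and the builds mm8 and mm10 without roles or versions. Depth is therefore known only as the estimate in the report, and no interval for counting error is given. Values of the same symbol were summed, and chromosomes came from a GENCODE M21 match of the gene identifiers. Genes with at least 1 FPKM in 3 of the 6 libraries of a comparison were tested on log2(FPKM + 1) with limma 3.58.1 (trended eBayes) in R 4.3.3, using those 6 libraries, two-sided, with Benjamini-Hochberg adjustment over all tested genes and a threshold of 0.05. The method was tested on simulated data. Tables and figures used Python 3.11.15, pandas 2.3.3, numpy 2.4.6 and matplotlib 3.10.9.

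Genes were named by rule: the 15 largest rises and falls with a mean of at least 5 FPKM in the higher group and no overlap, the 8 largest each way also called against R837, the 8 nearest control among genes changed at least 4-fold by R837 and called between the treated groups, up to 4 members of each of 32 pathway and 12 cell type lists ranked by size of change, and a fixed list of single genes. Predicted and non-coding genes were left out of the first 3. A further 41 genes were chosen after their values were seen, and Cd209a, Flt3 and Dpp4 are given as markers, and H2-Eb1 was named after its value was seen. Some genes that the rule names are not reported here. The members, lists and rule were chosen with earlier results of these data known. Alternatives covered the filter, pseudocount, scaling, libraries in the fit, mean-variance trend, replicate block and each library left out.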

Additional observations from a re-analysis of the deposited data

How the results depend on the processing

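For R837 plus spermidine against control, the count of higher genes stayed within 1.5 times 1942 under every alternative run. The count of lower genes, 4462, was 2512 with a mean of at least 5 FPKM, where fewer genes were tested, and 2602 with median-of-ratios scaling. With each library left out it was 3701 to 4070, and the higher count 1666 to 1852. For R837 against control, 1443 higher genes became 1154 to 1687 with a library left out, and 3012 lower genes became 1893 to 3742, 1671 with a mean of at least 5 FPKM and 1617 with median-of-ratios scaling. The comparison of the treated groups moved most. Its 312 higher and 484 lower genes became 150 and 193 with no filter, 664 and 958 with all 9 libraries in one fit, and 65 to 500 and 85 to 600 with a library left out, and the cause was not tested. Among the counts with a library left out, the highest came without the second R837 library. With the replicate number as a block they were 97 and 134, and the counts against control 1804 and 4045. The numbers do not pair the libraries: the deviations of same-numbered control and combined libraries correlated at -0.064, 0.147 and 0.051 over genes, and not every library correlated best with its own number. Of 251 named genes tested, 231 kept their direction and side of the threshold with median-of-ratios scaling and all 251 with a pseudocount of 0.1. With that scaling 3 changed sign: Dohh to 0.00 (from -0.18), Csf1r to 0.14 (from -0.06) and Itgax to 0.19 (from -0.01). Low control levels and FPKM without counts limit the precision for Il6, Il10 and Il12a.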
